A study of Homo sapiens with 4 samples.

Results

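The genes of oxidative phosphorylation were followed in cultured human microglia-like cells exposed to bacterial lipopolysaccharide (LPS), to the γ-secretase inhibitor semagacestat, or to both. The members were the gene rows whose symbols name subunits, assembly factors or regulators of respiratory complexes I to V. The symbol prefixes were NDUFA, NDUFB, NDUFC, NDUFS and NDUFV, the 4 SDH genes, UQCR, COX4 to COX8, ATP5, and the mitochondrial MT-ND, MT-CO, MT-ATP and MT-CYB. They came to 112 of 36601 genes, 99 of them on nuclear chromosomes and 13 in the mitochondrial genome. The nuclear rows comprised 78 subunits that most tissues use, the ATP synthase inhibitor ATP5IF1, 8 complex I assembly factors, 7 tissue or stress isoforms, 3 noncoding rows, and the retrocopies UQCRHL and ATP5MGL. Enough UMIs (unique molecular identifiers, each standing for 1 captured RNA molecule) for a test were found for 107 members, 94 nuclear and 13 mitochondrial. The 5 that did not reach this level were COX7A1, COX7B2, COX8C, COX6B2 and COX4I2.

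The cells were microglia-like cells made from the human embryonic stem cell line H9. Monocyte-like precursors were formed first and then matured for 7 days in a medium holding TGF-β, IL-34 and cholesterol. Each of 4 conditions had 3 cultures. SemaLPS cultures received 2 µM semagacestat for 22 h and 200 ng/mL LPS for the last 6 h, LPS cultures the same LPS with the inhibitor's vehicle (DMSO), Sema cultures the inhibitor with the vehicle of LPS (PBS), and Ctrl cultures both vehicles. All cells were collected in the presence of actinomycin D, an inhibitor of transcription, were labelled by culture with hashtag antibodies, and were pooled and split into 2 droplet libraries that read the 3' ends of transcripts. All cultures come from 1 cell line, so a p-value here sets a difference against the spread of cultures, not of donors.

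Oxidative phosphorylation makes most of the ATP of resting cells. Complexes I and II pass electrons to ubiquinone, complex III passes them on to cytochrome c and complex IV to oxygen, and the proton gradient that builds up drives complex V, the ATP synthase. Complex II is coded entirely in the nucleus, while the other complexes also need subunits made from the mitochondrial genome, which is transcribed as long precursors from both strands and cut into single messengers. In macrophages, strong stimulation of Toll-like receptor 4, the receptor of LPS, is known to shift energy metabolism from respiration towards glycolysis, and part of that shift acts on proteins and metabolites rather than on transcripts.

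The 21331 cells kept carried 1 hashtag and at least 1000 genes. Cultures ranged from 1494 to 2617 cells and from 41539445 to 72526762 UMIs, and their median cell from 26031 to 29916 UMIs. Of 13 markers of microglia and macrophages, all were detected, and their summed level was 7362 to 8002 CPM (UMIs per 1000000) in SemaLPS cultures, 7074 to 7849 in LPS cultures, 7193 to 7629 in Sema cultures and 7069 to 7290 in Ctrl cultures. Within that list 3 genes (23.1%) rose and 8 (61.5%) fell in LPS against Ctrl, where 30.3% of all genes rose and 29.2% fell. One that fell was P2RY12, a purine receptor of resting microglia, with a log2 fold change of −2.57 (SE 0.13). The 8 markers of dividing cells summed to 293 to 436 CPM in SemaLPS cultures, 224 to 321 in LPS cultures, 382 to 507 in Sema cultures and 269 to 476 in Ctrl cultures. Markers of endothelial cells, 1 of 3 with a test, summed to 39.6 to 47.9 CPM in SemaLPS cultures, 42.3 to 59.9 in LPS cultures, 75.4 to 85.4 in Sema cultures and 82.2 to 105 in Ctrl cultures. The part of these markers in the results was not tested. Lists for neutrophil precursors, mast cells, red cells, megakaryocytes, fibroblasts, pluripotent and neural cells each summed to 0 to 11.8 CPM. MPO and ELANE, from the list of 4 neutrophil precursor markers, and HBG1 of red cells were at 0 UMIs in all cultures. Of the neutrophil precursor list 1 gene was tested and was called lower in LPS against Ctrl (log2 fold change −1.80). That list summed to 0.04 to 0.12 CPM in LPS cultures and 0.27 to 0.36 in Ctrl cultures.

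The size of the LPS difference depended on how cultures were put on a common scale, and this touches every value of the pathway. TMM scaling, which takes the bulk of genes as unchanged, gave factors of 0.918 to 0.948 to the cultures with LPS and of 1.05 to 1.09 to those without. In LPS against Ctrl the median log2 fold change of all 15675 genes tested was −0.02 with TMM scaling, −0.24 with total UMIs alone and −0.10 per cell kept. Values below are TMM-scaled unless another scale is named. The distance of a member from the median gene, and the ratio of 2 members, do not depend on this choice.

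With LPS the transcripts of the pathway, nuclear and mitochondrial, stood above the median gene. The median nuclear member lay 0.17 above the median of all genes in LPS against Ctrl on the log2 scale, and the median of the 13 mitochondrial members 0.14 above it. These distances are the same on each scale because a change of scale moves all genes of a comparison together. Against 0 the direction was not fixed: the median nuclear log2 fold change was 0.15 with TMM scaling and 0.07 per cell, but −0.07 with total UMIs, and the mitochondrial one was 0.12 and 0.04, but −0.09. In SemaLPS against Sema the nuclear median lay 0.15 above the median gene and the mitochondrial one 0.18 above it.

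Summed over all nuclear members and TMM-scaled, the LPS cultures held 232, 214 and 222 UMIs per 10000 and the Ctrl cultures 207, 197 and 205. Every LPS culture lay above every Ctrl culture on that scale. Out of all UMIs, with no further scaling, the nuclear sum had a mean and SD over 3 cultures of 207 ± 5.47 per 10000 in LPS and 219 ± 6.40 in Ctrl, so that the order was the opposite, and LPS-1 (212.9) and Ctrl-2 (212.8) met. Per cell kept, the sum was 611 ± 29.9 UMIs in LPS cultures and 589 ± 32.0 in Ctrl cultures, a difference smaller than the SD. Out of the UMIs from outside the mitochondrial genome, the nuclear members took 228 ± 4.80 per 10000 in LPS cultures and 243 ± 6.03 in Ctrl cultures, and the cultures of the pair did not overlap.

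The proportion of the 2 genomes was read as a ratio that needs no scaling. For each UMI of a nuclear member the cultures held 4.55 ± 0.299 mitochondrial ones in SemaLPS, 4.56 ± 0.386 in LPS, 4.41 ± 0.314 in Sema and 4.57 ± 0.320 in Ctrl (SD, n = 3 each). Over all cells this ratio differed between conditions by less than the SD among cultures. Set against the Ctrl culture of the same number, it was lower in LPS-1 and LPS-2 and higher in LPS-3, while each SemaLPS culture lay above the Sema culture of its number, by 0.17, 0.06 and 0.18. In cells with at most 10% mitochondrial UMIs the ratio was 3.70 ± 0.098 in SemaLPS cultures against 3.49 ± 0.082 in Sema cultures, which did not overlap. In the same cells it was 3.69 ± 0.091 in LPS cultures and 3.58 ± 0.092 in Ctrl cultures, which overlapped, although all 3 LPS cultures lay above the Ctrl culture of their number. In cells above 10% it was 8.34 ± 0.38 in SemaLPS cultures against 7.07 ± 0.37 in Sema cultures, and 8.91 ± 1.16 in LPS cultures against 7.31 ± 0.73 in Ctrl cultures, higher in all 3 pairs of each comparison. A limit on mitochondrial UMIs selects cells by part of this ratio, so its values within these classes are given as a description. With 3 pairs an exact paired permutation test cannot go below a two-sided p of 0.25. Number 1 cultures had the lowest ratio in every condition, at 4.22 in SemaLPS-1, 4.14 in LPS-1, 4.05 in Sema-1 and 4.26 in Ctrl-1, while the numbers 2 and 3 lay between 4.55 and 4.90. Number 1 cultures also had the highest nuclear sum per 10000 of all UMIs in each condition. What the numbers mark is not given in the labels.

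**Figure D1:**
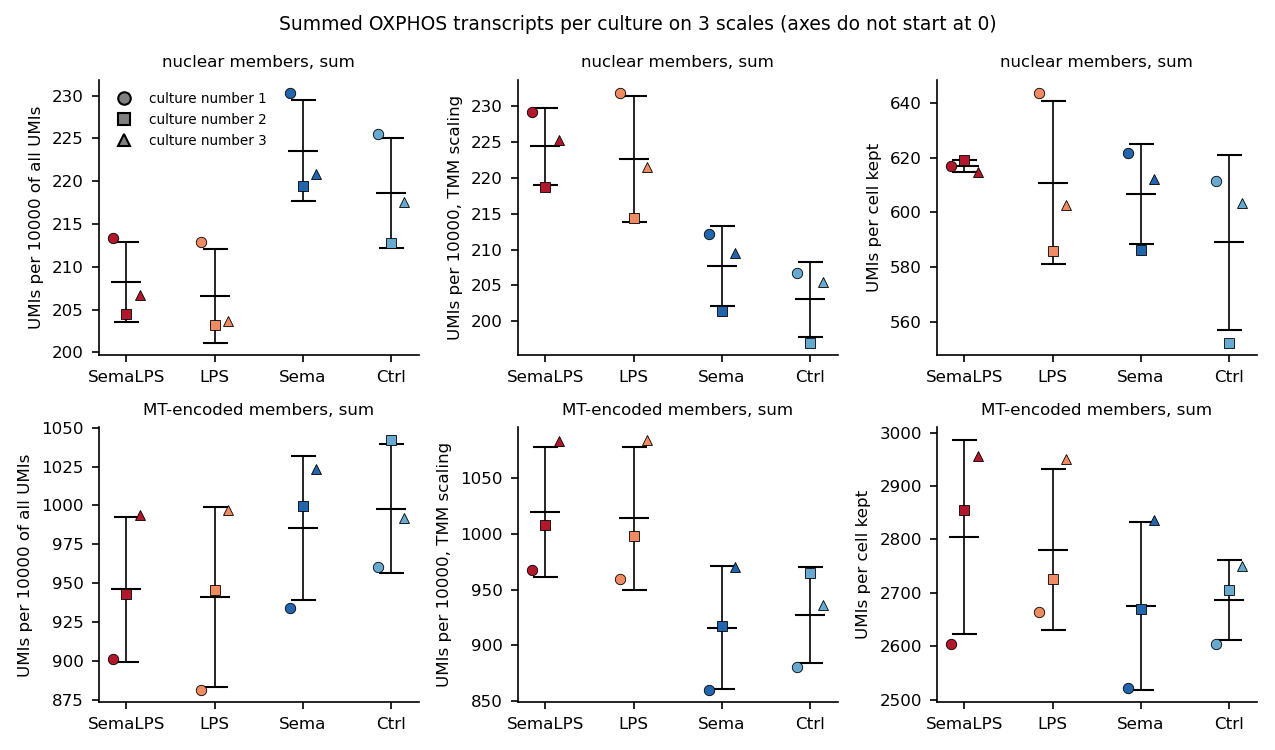
Summed UMIs of nuclear (top) and mitochondrial (MT-encoded, bottom) members in each culture, per 10000 of all UMIs, per 10000 with TMM scaling, and per cell kept; points are cultures, shaped by number, and bars are means with SD (n = 3). The mean nuclear sum of LPS cultures was lower than that of Ctrl cultures out of all UMIs (207 against 219), and higher with TMM scaling (223 against 203). Cultures overlapped per cell and, by LPS-1 and Ctrl-2, out of all UMIs.

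Single members were tested with edgeR's quasi-likelihood test, with p-values adjusted over all genes (Benjamini-Hochberg, threshold 0.05). In LPS against Ctrl, 60 of 94 nuclear members rose with TMM scaling, where 30.3% of all genes rose, and 3 fell, where 29.2% of all genes fell. Without LPS-1 the number that fell was 5, in a fit for which the share of all genes is not given here. With total UMIs the split was the reverse: 9 nuclear members rose (16.5% of all genes) and 32 fell (47.3%). Per cell, 24 rose (23.4%) and 9 fell (34.1%). There were 6 members, COX4I1 among them, that were called higher with TMM scaling and lower with total UMIs. The share of all genes called in opposite directions in this way is not given here. On all 3 scales 9 members rose, against 16.5% of all genes, and 3 fell, against 29.2%. The 9 were NDUFAF2, NDUFV2, NDUFAF3, NDUFAF6, NDUFAF4, NDUFA6, COX7A2, ATP5F1B and ATP5MD, and those that fell included ATP5IF1 and NDUFB5.

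Complex I, the entry point for electrons from NADH, held the largest number of the members that rose, and it is also the largest set. Of its 37 subunits with a test, 28 (75.7%) rose and 2 (5.4%) fell, with a median log2 fold change of 0.18. Over all genes 30.3% rose and 29.2% fell with TMM scaling. Complex IV had 9 of 12 that rose with TMM scaling, complex V 11 of 17, complex III 4 of 8 and complex II 2 of 4. Their medians were 0.14, 0.13, 0.08 and 0.06, and none of their subunits fell on that scale. With total UMIs the medians were −0.04 for complex I, −0.07 for IV, −0.08 for V, −0.13 for III and −0.15 for II. They kept the order, as a common shift of scale must, but lay below 0. The calls turned as well, with 2 of 37 complex I subunits that rose and 11 that fell with total UMIs. In complexes IV, V, III and II, 1, 2, 0 and 0 rose and 4, 8, 4 and 2 fell. Over all genes 16.5% rose and 47.3% fell on that scale. Of the assembly factors of complex I, 6 of 8 rose with TMM scaling with a median of 0.34, and with total UMIs 4 rose, 1 fell and the median was 0.13. A test of the difference between these groups was not made.

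**Figure D2:**
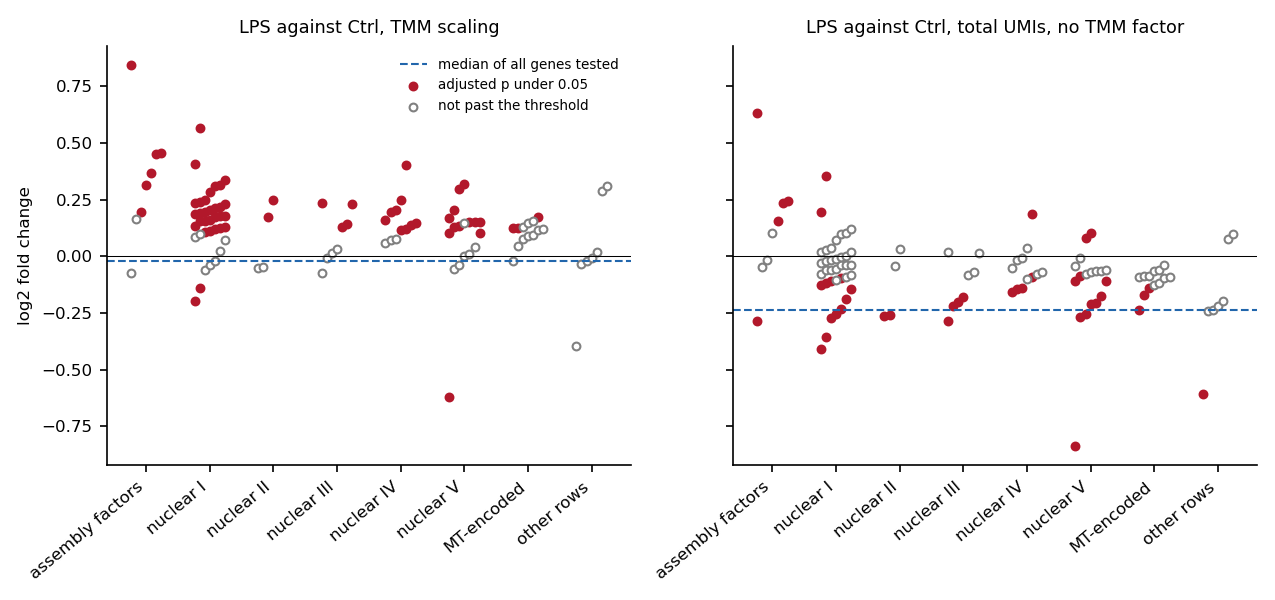
Log2 fold change of each tested member in LPS against Ctrl, by complex, with TMM scaling (left) and total UMIs (right); filled points passed the adjusted p threshold and the dashed line is the median of all genes tested. Most members lie above the dashed line in both panels (−0.02 and −0.24), but most lie above 0 only in the left one.

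NDUFV2 (chromosome 18, 9102630 to 9134345, plus strand, GRCh38, protein-coding) is a core subunit of the module that takes electrons from NADH. It had 257.7, 239.7 and 249 CPM in LPS cultures, against 171, 156 and 176 CPM in Ctrl cultures. All LPS cultures lay above all Ctrl cultures. The log2 fold change was 0.57 (SE 0.05, edgeR adjusted p = 3.57e-07), and 0.35 with total UMIs. NDUFV1, its partner in the same module, rose by 0.20 with TMM scaling but had −0.01 with total UMIs. NDUFA6, a small subunit of the LYR family that anchors an acyl carrier protein to complex I, had 131, 121 and 127 CPM in LPS cultures against 100.1, 89.1 and 96.6 CPM in Ctrl cultures, a log2 fold change of 0.41 (SE 0.05, adjusted p = 1.99e-05).

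NDUFB5, a subunit of the membrane arm, moved the other way. It had 114, 107 and 112 CPM in LPS cultures against 122, 119 and 127 CPM in Ctrl cultures. Its log2 fold change of −0.14 (SE 0.04, adjusted p = 0.0115) did not pass without LPS-2 (−0.11, adjusted p = 0.0576) or without Ctrl-3 (−0.12, adjusted p = 0.0562). Subunits of 1 complex that assemble in fixed proportion thus had transcript differences of both signs.

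Among the assembly factors, NDUFAF2 (chromosome 5, 60945129 to 61153037, plus strand), a chaperone related to the subunit NDUFA12, had the largest rise of all members. It stood at 38.3, 31.5 and 29.5 CPM in LPS cultures, against 19.8, 17.7 and 17.7 CPM in Ctrl cultures. The log2 fold change was 0.85 (SE 0.09, adjusted p = 3.96e-06), and 0.63 with total UMIs. NDUFAF3, which works with NDUFAF4 on the ubiquinone module, had 108, 95.3 and 97.5 CPM in LPS cultures against 76.5, 70.9 and 72.7 CPM in Ctrl cultures, a log2 fold change of 0.45 (SE 0.05, adjusted p = 7.09e-06). NDUFAF4 (0.37, SE 0.06) and NDUFAF6 (0.46, SE 0.07) also rose, as named above for passing on all 3 scales and chosen here after their values were seen. NDUFAF1 (0.31, SE 0.06) and NDUFAF8 (0.20, SE 0.05) rose with TMM scaling, while NDUFAF5 (0.16, adjusted p = 0.0765) and NDUFAF7 (−0.07, adjusted p = 0.419) did not pass.

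**Figure D3:**
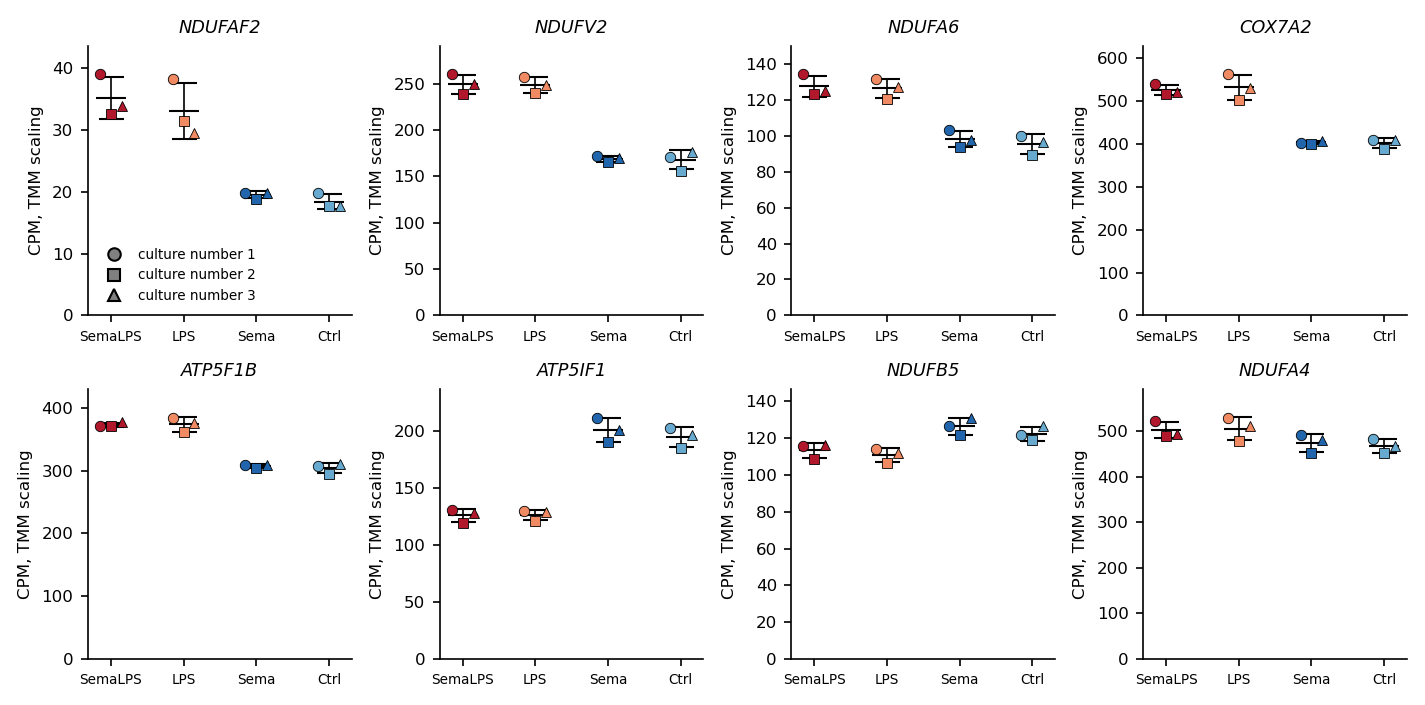
TMM-scaled CPM of 8 members in each culture, with means and SD (n = 3 per condition) and with points shaped by culture number; axes start at 0. NDUFAF2, NDUFV2, NDUFA6, COX7A2 and ATP5F1B are higher, and ATP5IF1 and NDUFB5 lower, in all cultures with LPS than in those without, while NDUFA4 overlaps.

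The promoters of these genes are shown because nuclear OXPHOS genes are known to share binding sites for nuclear respiratory factor 1 (NRF1), for ETS factors such as GABPA, and for YY1. Windows of 300 bases, 250 before and 50 after the transcription start, come from RefSeq (GRCh38.p14) and were found for 75 of 94 nuclear members that are neither noncoding rows nor retrocopies. The cores searched on both strands were GCGCATGC for NRF1, CCGGAAG for ETS and AAGATGGCG for YY1. None of these cores contains another, but the NRF1 core can overlap its own reverse complement, as in SDHD. The NRF1 core was in 21.3% of these members (16), against 6.26% of the 10826 tested genes with a window and 3.68% of all 27305 genes with one. The ETS core was in 29.3% of members (22), against 21.9% and 12.2%, and the YY1 core in 13.3% (10), against 4.53% and 2.14%. At least 1 core was in 24 of the 48 members that rose with LPS (50.0%) and in 12 of the 27 others (44.4%). A match in letters is a description of the window and not evidence of binding. The windows below are those of a subunit that rose and holds the NRF1 and YY1 cores (NDUFA6, chr22:42090723-42091022, minus strand), of a complex II subunit that rose and holds the NRF1 core on both strands and the ETS core (SDHD, chr11:112086623-112086922, plus strand), of the assembly factor with the largest rise (NDUFAF2, chr5:60944955-60945254, plus strand) and of the ATP synthase inhibitor that fell (ATP5IF1, chr1:28235874-28236173, plus strand). Capitals mark the cores on either strand, and the last 2 windows hold none.
NDUFA6: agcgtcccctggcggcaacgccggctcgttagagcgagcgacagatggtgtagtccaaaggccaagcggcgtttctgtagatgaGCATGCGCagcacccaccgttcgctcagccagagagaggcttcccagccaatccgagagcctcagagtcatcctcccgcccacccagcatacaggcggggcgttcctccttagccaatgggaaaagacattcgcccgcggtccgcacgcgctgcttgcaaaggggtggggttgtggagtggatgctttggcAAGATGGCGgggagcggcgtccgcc
SDHD: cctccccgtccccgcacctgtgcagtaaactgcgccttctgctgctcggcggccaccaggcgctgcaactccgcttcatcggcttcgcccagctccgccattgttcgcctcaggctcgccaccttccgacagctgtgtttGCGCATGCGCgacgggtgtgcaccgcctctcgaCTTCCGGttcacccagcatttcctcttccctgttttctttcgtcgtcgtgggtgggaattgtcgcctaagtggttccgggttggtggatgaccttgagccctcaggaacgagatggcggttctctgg
NDUFAF2: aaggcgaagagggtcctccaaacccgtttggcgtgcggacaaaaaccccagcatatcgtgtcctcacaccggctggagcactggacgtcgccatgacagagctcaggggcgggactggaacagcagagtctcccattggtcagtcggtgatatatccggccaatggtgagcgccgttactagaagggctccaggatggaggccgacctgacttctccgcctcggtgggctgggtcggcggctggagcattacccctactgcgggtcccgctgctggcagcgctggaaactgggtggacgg
ATP5IF1: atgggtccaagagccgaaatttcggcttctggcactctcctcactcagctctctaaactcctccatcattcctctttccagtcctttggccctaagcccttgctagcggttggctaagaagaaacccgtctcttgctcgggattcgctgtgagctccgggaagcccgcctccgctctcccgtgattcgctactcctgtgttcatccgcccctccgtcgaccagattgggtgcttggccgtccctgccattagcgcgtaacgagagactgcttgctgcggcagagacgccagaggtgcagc

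Complex II, succinate dehydrogenase, is shared with the tricarboxylic acid cycle and has 4 subunits. SDHD, which anchors it in the membrane, had 70.6, 66.0 and 67.3 CPM in LPS cultures against 57.5, 56.2 and 58.0 CPM in Ctrl cultures, a log2 fold change of 0.25 (SE 0.04, edgeR adjusted p = 9.74e-05). SDHB, the iron-sulfur subunit, had a log2 fold change of 0.17 (SE 0.04, adjusted p = 0.00265). SDHC, the other anchor (−0.05, SE 0.03), and the catalytic SDHA (−0.05, SE 0.05) did not pass. With total UMIs SDHD was at 0.03 and SDHB at −0.04, neither past the threshold, while SDHA (−0.26) and SDHC (−0.27) were called lower. SDHB and SDHD thus lay above SDHA and SDHC in this comparison.

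In complex III, UQCRFS1, the Rieske iron-sulfur protein, had 144, 138 and 136 CPM in LPS cultures and 119.5, 116 and 120.1 CPM in Ctrl cultures, a log2 fold change of 0.23 (SE 0.04, adjusted p = 8.37e-05). UQCR11, a small subunit, rose by 0.23 (SE 0.03), UQCRC2, a core protein, by 0.14 (SE 0.04) and UQCRQ by 0.13 (SE 0.05, adjusted p = 0.0348). The last call was lost without LPS-1 (0.09, adjusted p = 0.140), Ctrl-2 (0.10, adjusted p = 0.169), Ctrl-3 (0.14, adjusted p = 0.0639) or Sema-3 (0.12, adjusted p = 0.0628). UQCRH, the hinge protein, was at 0.03 (SE 0.04). Its near-identical retrocopy UQCRHL had 70 to 144 UMIs per culture and a log2 fold change of 0.02 (SE 0.15), and the sources used here do not say how reads were divided between such copies. With total UMIs UQCRFS1 and UQCR11 were at 0.02 each, and UQCRC2 (−0.07), UQCRQ (−0.08) and UQCRH (−0.18) were below 0. On that scale 4 of the 8 subunits were called lower, and all LPS cultures lay below all Ctrl cultures for UQCRH.

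Complex IV, cytochrome c oxidase, has subunits with alternative isoforms, and the microglia-like cells used the widespread ones. COX4I1 had 609.5 to 707 CPM over LPS and Ctrl cultures, while COX4I2, the isoform of lung and low oxygen, had 0 UMIs in all 12 cultures. The heart and muscle isoform COX7A1 also had 0 UMIs in all of them, as did COX7B2. COX8C had 0 to 2 UMIs per culture, COX6B2 2 to 10 and COX6A2, another muscle isoform, 7 to 55. Their widespread counterparts COX8A and COX6B1 had 310.0 to 375 CPM and 528 to 584 CPM over LPS and Ctrl cultures. These are 3' UMIs, which are not scaled to length.

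COX7A2, the isoform in use, had the largest rise of complex IV, at 562, 502 and 531 CPM in LPS cultures against 409.5, 389 and 408 CPM in Ctrl cultures. The log2 fold change was 0.40 (SE 0.04, edgeR adjusted p = 2.47e-06), and 0.19 with total UMIs (adjusted p = 0.000719). COX7A2L, which joins complexes III and IV into supercomplexes, rose by 0.16 (SE 0.04), and COX6A1 rose by 0.25 (SE 0.05). COX6C (0.20, SE 0.04) and COX7B (0.21, SE 0.05) also rose, while COX6B1 was at 0.06 (SE 0.04) and did not pass. COX4I1 (0.12, adjusted p = 0.0245) and COX8A (0.14, adjusted p = 0.0229) were called, but both calls were lost without LPS-1 (0.10 and 0.09) and without Ctrl-2 (0.09 and 0.11), and that of COX4I1 also without LPS-3 (0.11). With total UMIs COX6A1 was at 0.04, COX6C (−0.02), COX7B (−0.01), COX7A2L (−0.05) and COX8A (−0.08) were slightly below 0, and COX4I1 was called lower (−0.09, adjusted p = 0.0335). COX6B1 was at −0.16 on that scale, the lowest value of the 12 subunits, of which 4 were called lower.

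NDUFA4, once counted to complex I, is the complex IV subunit that the inflammation-induced protein of C15orf48 is known to replace. C15orf48 lies outside the symbol rule and was listed with the pathway. It had 2595, 2469 and 2923 CPM in LPS cultures, against 281, 353 and 394 CPM in Ctrl cultures. Its log2 fold change was 2.96 (SE 0.14, edgeR adjusted p = 7.77e-10), and 2.74 with total UMIs. NDUFA4 had 529, 478 and 510.5 CPM in LPS cultures and 482, 452 and 467 CPM in Ctrl cultures, which overlap. Its log2 fold change of 0.12 (SE 0.05, adjusted p = 0.0496) was at the threshold, and was −0.10 (adjusted p = 0.0636) with total UMIs. The call was lost on leaving out any of 9 cultures, with values of 0.08 to 0.12. The rise of C15orf48 was thus not accompanied by a call of lower NDUFA4 transcripts on any of the 3 scales. The related stress isoform NDUFA4L2 had 22 to 52 UMIs per culture and a log2 fold change of −0.01 (SE 0.22).

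In complex V the clearest change was a fall of ATP5IF1 (chromosome 1, 28236109 to 28246906, plus strand), the inhibitor that stops the ATP synthase from running backwards and consuming ATP. It had 129.6, 121 and 129 CPM in LPS cultures, against 203, 185 and 197 CPM in Ctrl cultures. No LPS culture came near a Ctrl culture. The log2 fold change was −0.62 (SE 0.05, edgeR adjusted p = 2.37e-07), −0.84 with total UMIs and −0.70 per cell, the largest fall of any member with at least 20 CPM. ATP5F1B, the catalytic β subunit, moved the other way, with 384, 362 and 375 CPM in LPS cultures against 307, 295 and 311 CPM in Ctrl cultures. Its log2 fold change was 0.30 (SE 0.03, adjusted p = 5.73e-06), and 0.08 with total UMIs (adjusted p = 0.0298). ATP5F1A, the α subunit with which it forms the catalytic ring, was at −0.04 (SE 0.03) and did not pass with TMM scaling. Out of all UMIs each of its LPS cultures lay below each of its Ctrl cultures. ATP5MD, a small membrane subunit, rose by 0.32 (SE 0.04, adjusted p = 1.97e-05).

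The rotor ring of the ATP synthase is built from 1 protein that 3 genes encode, and these differed. ATP5MC3 rose with TMM scaling, with 662, 626 and 642 CPM in LPS cultures against 567, 544 and 562 CPM in Ctrl cultures (log2 fold change 0.21, SE 0.03, edgeR adjusted p = 0.000162). ATP5MC1 was at 0.15 (SE 0.06, adjusted p = 0.0648), and passed without Ctrl-1 (0.20, adjusted p = 0.0239) or LPS-2 (0.19, adjusted p = 0.0331). ATP5MC2 was at −0.06 (SE 0.04, adjusted p = 0.271). With total UMIs the values were −0.01, −0.07 and −0.27, and that of ATP5MC2 was called lower.

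The 13 mitochondrial genes had a median log2 fold change of 0.12, beside 0.15 for the nuclear members, and a difference between the 2 groups was not tested. With TMM scaling 12 of 13 had a positive log2 fold change in LPS against Ctrl, and 3 passed, beside 30.3% of all genes: MT-CO3 (0.17, SE 0.06, edgeR adjusted p = 0.0317), MT-ND5 (0.12, SE 0.05, adjusted p = 0.0443) and MT-ND6 (0.13, SE 0.04, adjusted p = 0.0127). MT-CO3 did not pass without Ctrl-1 (0.14), Ctrl-3 (0.18) or LPS-3 (0.12), and MT-ND6 not without Ctrl-3 (0.09). MT-ND5 did not pass on leaving out any of 6 cultures (0.09 to 0.13). None passed downwards. With total UMIs all 13 were below 0, none rose, and MT-ND2 (−0.14), MT-ND4L (−0.24) and MT-ATP8 (−0.17) were called lower. Over all genes 16.5% rose and 47.3% fell on that scale. Per cell none passed. MT-CO3, a core subunit of complex IV, had 17387, 18256 and 19872 CPM in LPS cultures and 15603, 17037 and 16565 CPM in Ctrl cultures. MT-ND6 had 108, 113 and 114 CPM in LPS cultures and 103, 107 and 97.5 CPM in Ctrl cultures. It is the only protein-coding gene on the light strand, and its level is uncertain in that the sources used here do not say whether reads of the opposite strand were kept out of it.

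The other mitochondrial genes, with TMM scaling, were at 0.12 for MT-CO1, 0.13 for MT-CO2, 0.15 for MT-CYB, 0.12 for MT-ATP6, 0.04 for MT-ATP8, 0.09 for MT-ND1, 0.08 for MT-ND2, 0.15 for MT-ND3, 0.09 for MT-ND4 and −0.02 for MT-ND4L, with SEs of 0.04 to 0.08. MT-ATP8 overlaps MT-ATP6 on 1 messenger and MT-ND4L overlaps MT-ND4, so that reads of these pairs may have been shared. In the fit with the culture number as a block 11 of 13 mitochondrial and 68 of 94 nuclear members rose, and 0 and 7 fell (33.7% of all genes rose there and 33.4% fell). In cells with at most 10% mitochondrial UMIs, a limit that selects on these genes, 10 and 51 rose, and 0 and 4 fell (30.3% and 29.0% of all genes). The mitochondrial count was 0 in library 1 alone and 4 in library 2 alone. Leaving out 1 culture moved it to 0 without Ctrl-3, 1 without Ctrl-1, 1 without LPS-3 and 5 without LPS-1. Shares of all genes in the fits of a single library or with 1 culture left out are not given here. By complex, the mitochondrial sum of complex IV was 608 ± 39.8 per 10000 in LPS cultures and 552 ± 22.5 in Ctrl cultures with TMM scaling, and that of complex I 247 ± 13.9 and 229 ± 13.4 (SD, n = 3 each).

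Genes that serve the pathway from outside the symbol rule were followed as lists, to be read beside the 30.3% of all genes that rose and the 29.2% that fell with TMM scaling, and the 16.5% and 47.3% with total UMIs. CYCS, cytochrome c itself, had 411, 367 and 342 CPM in LPS cultures against 215, 203 and 199 CPM in Ctrl cultures, a log2 fold change of 0.86 (SE 0.07, edgeR adjusted p = 1.08e-07), and 0.65 with total UMIs. CYC1, cytochrome c1 of complex III, rose by 0.52 (SE 0.05), and by 0.31 with total UMIs. Of 26 assembly genes of complex IV, 11 (42.3%) rose and 4 (15.4%) fell with TMM scaling, with a median of 0.12. With total UMIs 5 (19.2%) rose and 11 (42.3%) fell, shares near those of all genes. COX17, the copper chaperone of complex IV, had 154, 143 and 149 CPM in LPS cultures against 89.2, 86.4 and 91.8 CPM in Ctrl cultures (log2 fold change 0.74, SE 0.04). SCO1, which hands on that copper, rose by 0.42 (SE 0.04), while COX14 fell by 0.23 (SE 0.05).

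The 13 assembly genes of complexes II, III and V had shares near those of all genes, with 4 (30.8%) that rose and 5 (38.5%) that fell with TMM scaling, and 2 (15.4%) and 7 (53.8%) with total UMIs. ATPAF2, which assembles the catalytic head of the ATP synthase, had 22.1, 22.9 and 21.7 CPM in LPS cultures against 37.0, 33.1 and 33.5 CPM in Ctrl cultures, a log2 fold change of −0.64 (SE 0.05, edgeR adjusted p = 3.92e-07). Of 6 further complex I assembly genes 1 rose, TIMMDC1 (0.40, SE 0.04), and 1 fell, NUBPL (−0.46, SE 0.09), with TMM scaling. On the scale of total UMIs 1 of these 6 rose and 4 fell. Of 22 genes that copy and express mitochondrial DNA, 14 rose and 1 fell with TMM scaling, and 6 and 5 with total UMIs. TFAM, which packages and transcribes mitochondrial DNA, rose by 0.23 (SE 0.06) but was at 0.02 with total UMIs. Of 81 rows named as mitochondrial ribosomal genes, 80 were tested, and 45 rose and 5 fell with TMM scaling, and 19 rose and 22 fell with total UMIs.

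Among 16 genes of the tricarboxylic acid cycle and pyruvate dehydrogenase, 11 rose and 1 fell with TMM scaling, and 4 and 4 with total UMIs; IDH3A, a subunit of isocitrate dehydrogenase, rose by 0.66 (SE 0.05). Of 8 carriers and channels 6 rose and none fell with TMM scaling, and 2 rose and 4 fell with total UMIs. The transcriptional regulators of the pathway had 3 rises and 1 fall in 7 tested with TMM scaling, and 1 rise and 3 falls with total UMIs. PPARGC1B, a coactivator of respiratory genes, had 15.3, 18.8 and 14.9 CPM in LPS cultures against 22.4, 26.0 and 20.9 CPM in Ctrl cultures (log2 fold change −0.50, SE 0.12, edgeR adjusted p = 0.00233). NRF1 was at 0.02 (SE 0.13), and PPARGC1A did not reach the level for a test. These lists had medians between −0.04 and 0.28 on the TMM scale, apart from the 3 genes CYCS, CYC1 and C15orf48, beside −0.02 for all genes.

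With TMM scaling 55 of 107 members rose in both SemaLPS against Sema and LPS against Ctrl (27.7% of all genes did) and 3 fell in both (26.0%). They made up 93.2% of the 59 members that rose in SemaLPS against Sema and 87.3% of the 63 that rose in LPS against Ctrl, where the shares over all genes were 89.6% and 91.5%. With total UMIs 5 members rose in both (14.9% of all genes) and 33 fell in both (43.0%). In SemaLPS against Sema, 52 of 94 nuclear members rose (30.9% of all genes) and 3 fell (31.0%) with TMM scaling, and 6 rose (17.0%) and 43 fell (48.7%) with total UMIs. NDUFB5 and ATP5IF1 were again among those that fell. ATP5IF1 had 131, 119.7 and 129 CPM in SemaLPS cultures against 212, 191 and 201 CPM in Sema cultures, a log2 fold change of −0.67 (SE 0.05, edgeR adjusted p = 1.01e-07). NDUFAF2 had 39.0, 32.6 and 33.8 CPM in SemaLPS cultures against 19.9, 18.9 and 19.8 CPM in Sema cultures, a log2 fold change of 0.85 (SE 0.09). NDUFV2 had 260.2, 239 and 249 CPM in SemaLPS cultures against 172, 165 and 170.2 CPM in Sema cultures, a log2 fold change of 0.56 (SE 0.05). C15orf48 had 2292, 2506 and 2545 CPM in SemaLPS cultures against 238, 311 and 334 CPM in Sema cultures. The 2 LPS comparisons share no cultures. They do share the cell line, the pool, the libraries and 1 fitted model, so they are not independent experiments.

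Of the 13 mitochondrial members 7 rose and none fell in SemaLPS against Sema with TMM scaling, where 30.9% of all genes rose and 31.0% fell. With total UMIs none rose and 1 fell, where 17.0% of all genes rose and 48.7% fell. With the number as a block 12 mitochondrial and 64 nuclear members rose (34.4% of all genes), and 0 and 7 fell (35.2%). In cells with at most 10% mitochondrial UMIs 11 and 46 rose (30.9%), and 0 and 6 fell (30.3%). The mitochondrial count of rises was 1 without Sema-1, 3 without Sema-2 and 3 without SemaLPS-3, fits for which the share of all genes is not given here. The interaction, which tests whether the LPS difference itself changes with the inhibitor, passed for none of the 107 members, where it passed for 0% of all genes and for 0.0447% of them with the number as a block. None of the 107 had an unadjusted p under 0.05 for the interaction, and DESeq2's Wald test also called none. Among the 97 members with at least 20 CPM the difference of log2 fold changes lay between −0.12 and 0.08, with 95% intervals reaching from −0.33 to 0.29. COX6B1 (−0.08, SE 0.06), MT-ATP8 (0.08, SE 0.06) and NDUFA4L2 (−0.43, SE 0.31) had the smallest p-values.

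**Figure D4:**
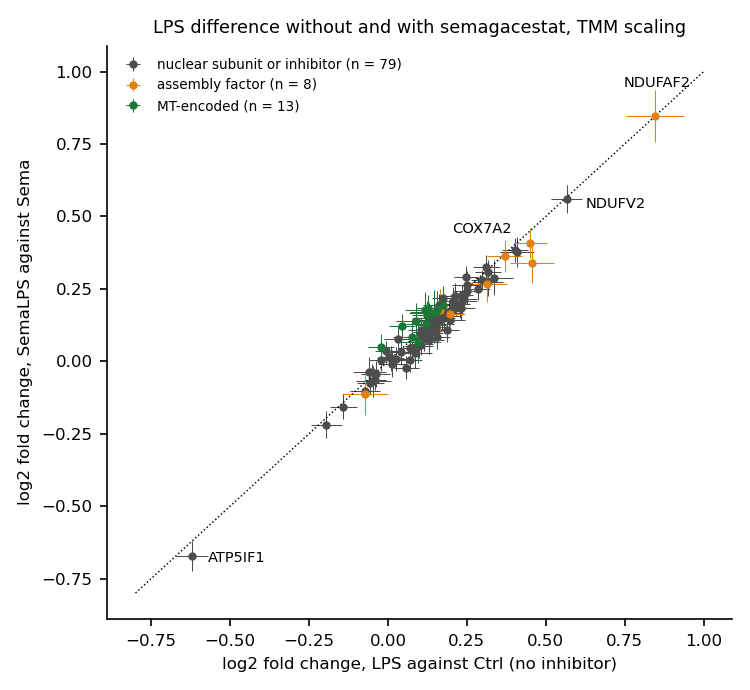
Log2 fold change of each member in SemaLPS against Sema (vertical axis) and in LPS against Ctrl (horizontal axis), TMM scaling, with bars for 1 SE; the dotted line marks equal values, and noncoding rows, retrocopies and tissue isoforms are left out. ATP5IF1 (−0.67 and −0.62) and NDUFAF2 (0.85 in both) lie at the ends, close to the line.

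Semagacestat alone left no member past the threshold. In Sema against Ctrl 0 of 107 members were called, where 0.00638% of all genes were, and none had an unadjusted p under 0.05. With the number as a block 3.27% of all genes were called, again with 0 members, and 16 of 94 nuclear members (17.0%) had an unadjusted p under 0.05, near the 15.9% of all genes. DESeq2's Wald test called none. Among the 97 members with at least 20 CPM the log2 fold changes lay between −0.05 and 0.09, with 95% intervals reaching from −0.19 to 0.29. A p-value that misses the threshold does not show that the levels were equal. These intervals give the sizes that the unpaired fit allows, which counts differences between culture numbers as spread. The smallest p-values belonged to NDUFS7 (0.09, SE 0.04), NDUFA10 (0.07, SE 0.04) and NDUFAF8 (0.08, SE 0.05), all with an edgeR adjusted p of 0.897.

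In SemaLPS against LPS no member was called either, where 0% of all genes were, and 2.43% with the number as a block. None of the 107 had an unadjusted p under 0.05, 5 (4.67%) had one with the block, where 13.7% of all genes did, and DESeq2's Wald test called none. Log2 fold changes of the 97 members with at least 20 CPM lay between −0.08 and 0.09, with 95% intervals reaching from −0.22 to 0.28. UQCRH (0.08, SE 0.04), COX6A2 (−0.97, SE 0.62) and NDUFB2-AS1 (−0.24, SE 0.17) had the smallest p-values. The summed nuclear level per 10000 of all UMIs was 208 ± 4.62 in SemaLPS cultures and 207 ± 5.47 in LPS cultures, and 224 ± 5.92 in Sema cultures and 219 ± 6.40 in Ctrl cultures. Both differences were smaller than the SD among 3 cultures. Between cultures of the same number this sum was higher with semagacestat in all 3 pairs, by 0.47, 1.30 and 3.02 in SemaLPS over LPS and by 4.90, 6.70 and 3.27 in Sema over Ctrl. With TMM scaling the same differences were −2.71, 4.24 and 3.69 per 10000 in SemaLPS over LPS, and 5.43, 4.37 and 4.04 in Sema over Ctrl, so that 1 pair with LPS turned.

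Over single cells, the share of UMIs from the mitochondrial genome had a median of 8.38 to 8.87% in SemaLPS cultures, 8.24 to 8.75% in LPS cultures, 8.76 to 9.21% in Sema cultures and 8.98 to 9.28% in Ctrl cultures. The nuclear members took a median of 2.22 to 2.30% of the UMIs from outside the mitochondrial genome in SemaLPS cultures, 2.18 to 2.29% in LPS cultures, 2.38 to 2.52% in Sema cultures and 2.31 to 2.46% in Ctrl cultures. Both medians were lower in every LPS culture than in every Ctrl culture, on this scale of shares. Within a culture, cells with a larger nuclear share tended to have a smaller mitochondrial one, with Spearman correlations over cells between −0.46 and −0.30. Both shares are fractions of the same cell's UMIs, and these cells share a library and a culture.

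Cells rich in mitochondrial UMIs can be damaged cells, and how their share compared between conditions depended on the limit. In LPS cultures 19.6 to 30.6% of cells were above 10% mitochondrial UMIs, and in Ctrl cultures 30.7 to 37.9%, with LPS-3 just below Ctrl-1. In SemaLPS cultures it was 21.6 to 31.3% and in Sema cultures 26.2 to 36.9%, which overlapped. Above 20% were 4.49, 7.80 and 10.2% of cells in LPS cultures and 5.29, 9.76 and 5.99% in Ctrl cultures, which overlapped, with LPS-3 the highest of all cultures. In cells at or below 10%, the nuclear sum per 10000 UMIs from outside the mitochondrial genome was 232 ± 4.58 in LPS cultures against 250.6 ± 5.03 in Ctrl cultures, and in cells above 10% it was 210.2 ± 3.68 against 224 ± 6.04 (SD over 3 cultures). The LPS cultures lay below the Ctrl cultures in both kinds of cell on this scale, while with TMM scaling 51 nuclear members rose and 4 fell in cells at or below 10%.

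**Figure D5:**
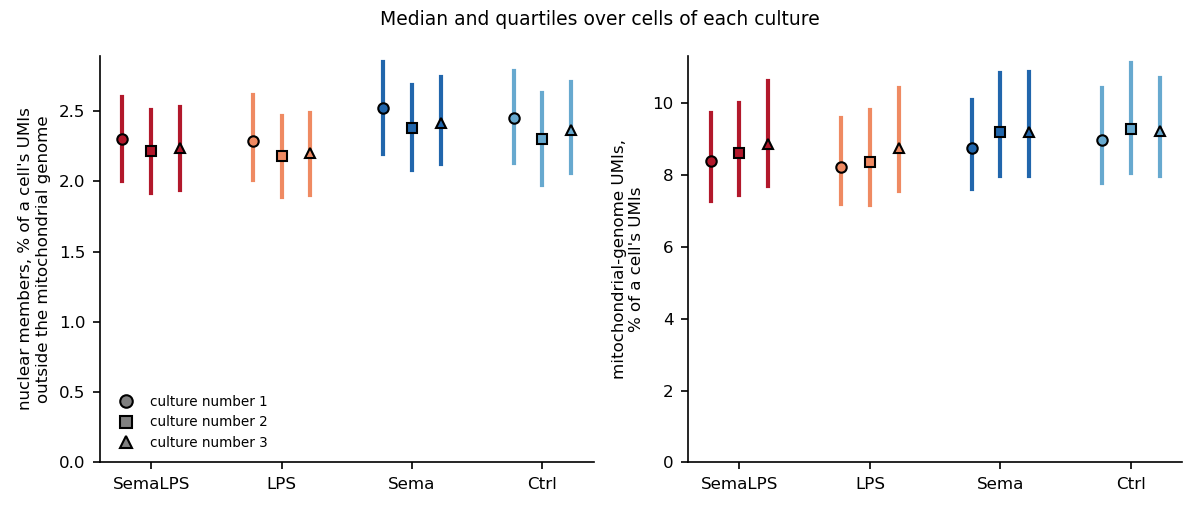
Median (points) and quartiles (bars) over the cells of each culture, for the nuclear members as a percent of a cell's UMIs from outside the mitochondrial genome (left) and for the mitochondrial genome as a percent of all UMIs of a cell (right). Both medians are lower in LPS cultures (2.18 to 2.29% and 8.24 to 8.75%) than in Ctrl cultures (2.31 to 2.46% and 8.98 to 9.28%), and the quartiles overlap.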

How the data were processed

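The deposited matrices hold whole-number UMI counts per gene and hashtag antibody and per cell barcode, made by the authors with Cell Ranger. The submitters' processing notes name version 3.0.2 with Seurat 4.1.1, and the file headers name Cell Ranger 6.0.1. Gene rows in the files follow Ensembl IDs, of which 94.58% were in GENCODE release 29 (GRCh38), from which gene positions were read. Settings for strand and for reads shared between genes are not given in the sources used here.

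Barcodes were assigned to the 12 cultures from hashtag counts. For each hashtag the background was taken from a k-means clustering (scikit-learn 1.9.0, 13 clusters), and a barcode was positive above its 99th percentile. Of 28943 barcodes, 21747 had 1 hashtag, 6716 (23.2%) had more and were removed as doublets, and 480 had none. No other doublet caller was run, so doublets within 1 culture remain. The 2 libraries, with 14535 and 14408 barcodes, shared 91 barcode sequences, and their cells were kept as separate cells. No cap on mitochondrial UMIs was set in the main analysis, because it would select on the mitochondrial members.

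The counts of a culture's cells, from both libraries together, were added up and fitted with edgeR 4.0.16 (R 4.3.3) by the quasi-likelihood F-test, with TMM scaling, its default filter on low counts and 1 model of the 4 conditions. P-values were adjusted over all genes tested (Benjamini-Hochberg), at a threshold of 0.05. The procedure was also run on counts simulated from means and dispersions fitted to these data, and the outcome is not given here. CPM are UMIs per 1000000 of TMM-scaled library size. Alternatives were DESeq2 1.42.0, its size factors, scaling without mitochondrial genes, no low-count filter, caps of 10% and 20% mitochondrial UMIs, 200 genes per cell, each library alone, other hashtag backgrounds, equal depth, a block for culture number, and each culture left out. Scaling by total UMIs and per cell was added after seeing the data.

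Culture numbers 1 to 3 recur in every condition. Deviations from the condition means, over 5314 genes with at least 20 CPM, correlated at 0.43 to 0.81 between cultures of the same number (18 pairs) and at −0.65 to 0.22 otherwise (36 pairs), so the numbers pair the cultures. This comes from the data, since the labels give no meaning to the number. The unpaired fit is the main one.

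The members and lists were chosen with earlier results of these data known. Named with values were all mitochondrial members, the 4 nuclear members of smallest adjusted p in each complex in LPS against Ctrl with any that moved the other way, fixed isoform sets, and the 3 members of smallest p in comparisons with no call. Other genes given with values, among them NDUFV1, ATP5F1A, SDHA, SDHC, the further assembly factors and the examples from the other lists, were chosen after their values were seen. Some items that the naming rule covers are not reported here. Fold changes are on the log2 scale with edgeR's prior count.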

Additional observations from a re-analysis of the deposited data

How the results depend on the processing

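The counts moved with scaling, with the block for culture number and with the cap on mitochondrial UMIs. With total UMIs, LPS against Ctrl gave 9 nuclear members higher and 32 lower (60 and 3 with TMM), and 0 mitochondrial members higher and 3 lower (3 and 0). SemaLPS against Sema gave 6 and 43 nuclear (52 and 3), and 0 and 1 mitochondrial (7 and 0). Over all genes 16.5% rose and 47.3% fell with total UMIs in LPS against Ctrl (30.3% and 29.2% with TMM). In SemaLPS against Sema these shares were 17.0% and 48.7% (30.9% and 31.0%). Per cell 24 nuclear members were higher and 9 lower in LPS against Ctrl, with 0 mitochondrial ones higher (23.4% of all genes rose, 34.1% fell). In SemaLPS against Sema 21 nuclear members were higher and 11 lower, with 0 mitochondrial ones higher (23.7% of all genes rose, 36.6% fell). The nuclear shares that rose per cell, 25.5% and 22.3%, were near those of all genes. The block for culture number gave 7 nuclear members lower in each LPS comparison. It gave 11 and 12 mitochondrial members higher in LPS against Ctrl and SemaLPS against Sema. With the block 33.7% of all genes rose and 33.4% fell in LPS against Ctrl, and 34.4% and 35.2% in SemaLPS against Sema. With block and the 10% cap on mitochondrial UMIs, 8 and 9 nuclear members were lower and 12 and 13 mitochondrial ones higher. The 10% cap alone gave 10 and 11 mitochondrial members higher (30.3% and 30.9% of all genes rose), and 6 nuclear members lower in SemaLPS against Sema (30.3% of all genes fell). The mitochondrial count in LPS against Ctrl was 5 with the 20% cap, 5 with DESeq2 (29.0% of all genes rose) and 0 in library 1 alone. Library 1 alone also gave 6 nuclear members lower in SemaLPS against Sema. The cause of these changes was not tested. Shares of all genes with block and cap together, with the 20% cap and in library 1 alone are not given here. The block left the 3 comparisons with 0 members called at 0.

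Leaving out each culture in turn gave 43 to 62 nuclear members higher and 2 to 5 lower in LPS against Ctrl, with 0 to 5 mitochondrial members higher and 0 lower. In SemaLPS against Sema it gave 38 to 54 nuclear members higher and 3 to 4 lower, with 1 to 9 mitochondrial members higher and 0 lower. The shares of all genes in these fits are not given here. With all cultures, 30.3% of all genes rose and 29.2% fell in LPS against Ctrl, and 30.9% and 31.0% in SemaLPS against Sema.

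Among named members, 48 of the alternative fold changes turned sign, all in LPS against Ctrl. With total UMIs these were ATP5MC1 (−0.069), ATP5MC3 (−0.008), COX4I1 (−0.093), COX6B1 (−0.156), COX6C (−0.019), COX7A2L (−0.053), COX7B (−0.009), COX8A (−0.078), NDUFA4 (−0.100), SDHB (−0.042), UQCRC2 (−0.071), UQCRH (−0.181), UQCRHL (−0.196), UQCRQ (−0.085), MT-ATP6 (−0.097), MT-ATP8 (−0.170), MT-CO1 (−0.092), MT-CO2 (−0.086), MT-CO3 (−0.040), MT-CYB (−0.067), MT-ND1 (−0.120), MT-ND2 (−0.138), MT-ND3 (−0.060), MT-ND4 (−0.125), MT-ND5 (−0.090) and MT-ND6 (−0.088). Per cell they were COX6B1 (−0.021), MT-ATP8 (−0.035), MT-ND2 (−0.004), UQCRH (−0.048) and UQCRHL (−0.061). In library 1 alone they were COX6A2 (0.88), NDUFA4L2 (0.31) and UQCRHL (−0.11). NDUFA4L2 also had 0.18 with the 10% cap, 0.18 with cap and block, 0.015 with other hashtag backgrounds and 0.014 at equal depth. On leaving out each culture, COX6A2 ranged from −0.58 to 0.31, NDUFA4L2 from −0.10 to 0.12, UQCRH from −0.007 to 0.064 and UQCRHL from −0.043 to 0.099. None of these 4 was called in the fits that left out 1 culture.

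COX6A2, NDUFA4L2 and UQCRHL had at most 55, 52 and 144 UMIs per culture and SEs of 0.55, 0.22 and 0.15, so that changes of that size were not detectable. Cells of 1 line, 3 cultures per condition and a pool handled together limit how far the spread stands for other experiments, and 3' UMI counts measure transcripts, not proteins or respiration.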
